A study of Mus musculus with 2 samples.

Results

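The colony-stimulating factors and their receptors were examined in mouse glioblastoma tumors treated with vehicle or Xevinapant. The set held the ligands Csf1, Il34, Csf2 and Csf3 and the receptor chains Csf1r, Csf2ra, Csf2rb and Csf3r, taken by gene symbol, which are 8 of the 19059 genes in the count matrices. Each symbol matched 1 gene. Csf2rb2, a mouse gene beside Csf2rb that encodes a closely related beta chain, is given next to Csf2rb because reads of such near copies can be difficult to separate.

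Tumors were grown from mGSC, a mouse glioblastoma stem cell line of genotype Trp53+/- and Nf1+/-, placed into the striatum of young adult female C57BL/6J mice. Both groups carried this same line, so every value below belongs to a single tumor model. Mice received vehicle or Xevinapant, a SMAC mimetic that antagonises the inhibitor of apoptosis proteins (IAPs), by daily oral gavage for a week. Fixed-RNA single-cell profiling gave 4 matrices per group. Each group came from its own pool and date, and the labels name total RNA for vehicle and polyA RNA for Xevinapant, so treatment, pool, date and RNA type cannot be told apart.

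The receptors fall into separate signalling arms. Csf1 (M-CSF) and Il34 both bind Csf1r, a receptor tyrosine kinase needed by microglia and most macrophages. Csf2 (GM-CSF) signals through Csf2ra paired with Csf2rb, the common beta chain shared with the receptors of Il3 and Il5. Csf3 (G-CSF) signals through Csf3r, the receptor that drives the production and survival of neutrophils. In glioma, Csf1 from tumor cells is a known attractant of macrophages and microglia.

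The promoter sequences of 4 genes are shown first, because they hold the letters that common myeloid and inflammatory regulators are known to read. They come from the RefSeq promoter table (build GRCm38.p6), which matched Csf1, Csf2, Csf2ra, Csf3r and Csf2rb2. Each run is the 170 bases that end just before the RefSeq start, written 5′ to 3′ on the strand of the gene. Capitals mark matches to GAGGAA (the core read by PU.1 and other ETS factors), TTNNGNAA (C/EBP) or the NF-kappaB motif (GGG, any 2 bases and TTTCC), searched on both strands over 250 bases before the start.
Csf2ra, chr19:61228419-61228588, minus strand: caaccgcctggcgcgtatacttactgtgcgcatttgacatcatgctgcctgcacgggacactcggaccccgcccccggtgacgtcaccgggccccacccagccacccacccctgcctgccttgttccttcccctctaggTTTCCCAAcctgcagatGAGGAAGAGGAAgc
Csf3r, chr4:126024489-126024658, plus strand: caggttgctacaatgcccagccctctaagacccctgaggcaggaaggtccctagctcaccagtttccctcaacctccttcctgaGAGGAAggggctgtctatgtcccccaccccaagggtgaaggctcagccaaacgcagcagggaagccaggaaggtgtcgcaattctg
Csf2rb2, chr15:78305722-78305891, minus strand: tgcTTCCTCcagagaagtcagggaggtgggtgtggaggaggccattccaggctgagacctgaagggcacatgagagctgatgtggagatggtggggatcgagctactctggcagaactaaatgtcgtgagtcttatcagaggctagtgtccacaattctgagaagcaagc
Csf1, chr3:107760470-107760639, minus strand: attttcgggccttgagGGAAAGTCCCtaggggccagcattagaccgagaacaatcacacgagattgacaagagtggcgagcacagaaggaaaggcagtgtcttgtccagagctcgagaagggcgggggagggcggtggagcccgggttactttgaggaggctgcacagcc

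All 3 receptor promoters held GAGGAA. Csf2ra had it 14 and 8 bases before the start and a TTNNGNAA match on the opposite strand 31 bases before, Csf3r had it 86 bases before, and Csf2rb2 had it on the opposite strand 167 bases before. Csf1 held no GAGGAA in the window but 1 NF-kappaB match on the opposite strand, 154 bases before the start. Csf2, whose letters are not printed, had 1 TTNNGNAA match on the opposite strand 145 bases before. Among 32851 promoters of this length, GAGGAA was in 23.3%, TTNNGNAA in 36.8% and the NF-kappaB motif in 1.41%. A match describes letters and does not show a bound site.

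In mm10 (GENCODE annotation), Csf1 lies on chromosome 3 (107741048 to 107760469, minus strand), Il34 on chromosome 8 (110741829 to 110805924, minus), Csf1r on chromosome 18 and Csf2ra on chromosome 19 (61223957 to 61228429, minus). Csf2rb (78325752 to 78353847, plus) and Csf2rb2 (78282507 to 78305721, minus) are neighbours on chromosome 15. Csf2 (54247271 to 54249667, minus) and Csf3 (98701263 to 98703629, plus) are both on chromosome 11, and Csf3r is on chromosome 4 (126024550 to 126044440, plus).

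Of 56943 barcodes, 50060 were kept, with matrix medians of 7841 to 13096 UMIs (unique RNA molecules). Vehicle matrices 1 and 3, Xevinapant 1 and 2, and Xevinapant 3 and 4 were far more alike than other pairs, both in the shares of their cell classes (chi-square per degree of freedom 0.94 to 1.47, against at least 4.8 in the rest) and in the genes of their tumor cells, although the gene counts still differed by more than sampling noise. They were joined, which left 3 vehicle samples and 2 Xevinapant samples. An exact permutation test on 3 against 2 cannot go below p = 0.1. Nothing says which mice gave which matrix, so p-values measure the spread between these samples. Between the groups, 1413 barcodes were present in a matrix of each, and in 1121 of them the smaller copy had under 2% of the UMIs of the larger; smaller copies were removed. Cells were gated by marker genes that included no colony-stimulating factor or receptor. Tumor cells were the largest class (36984), followed by 1130 macrophages, 731 microglia, 566 fibroblasts, 421 monocytes, 295 neutrophils, 218 endothelial cells and 48 dendritic cells, and 7782 cells passed no gate. Macrophages, monocytes, neutrophils, fibroblasts, endothelial cells and dendritic cells held all their defining markers at 3 or more times the level in all cells, and microglia 5 of 6. Tumor cells, which make up most of all cells, did so for 0 of 7 glial-lineage markers, whose summed level was 5829 CPM in them and 236 to 679 CPM in those 7 classes.

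The kept cells held 24439 UMIs of Csf1, 13350 of Il34, 25549 of Csf1r, 17192 of Csf2ra, 4001 of Csf2rb, 6100 of Csf3r and 2285 of Csf2rb2. Csf3 had 150 and Csf2 only 13. Levels below are a gene's UMIs divided by the summed UMIs of a sample's cells in a class, in CPM. They are listed with the vehicle samples first (matrices 1 and 3 joined, then 2, then 4) and the treated samples after them (matrices 1 and 2 joined, then 3 and 4). Samples with under 10 cells of a class were left out of that class. Levels of different genes were not compared, because probe numbers and efficiencies differ.

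**Figure D1:**
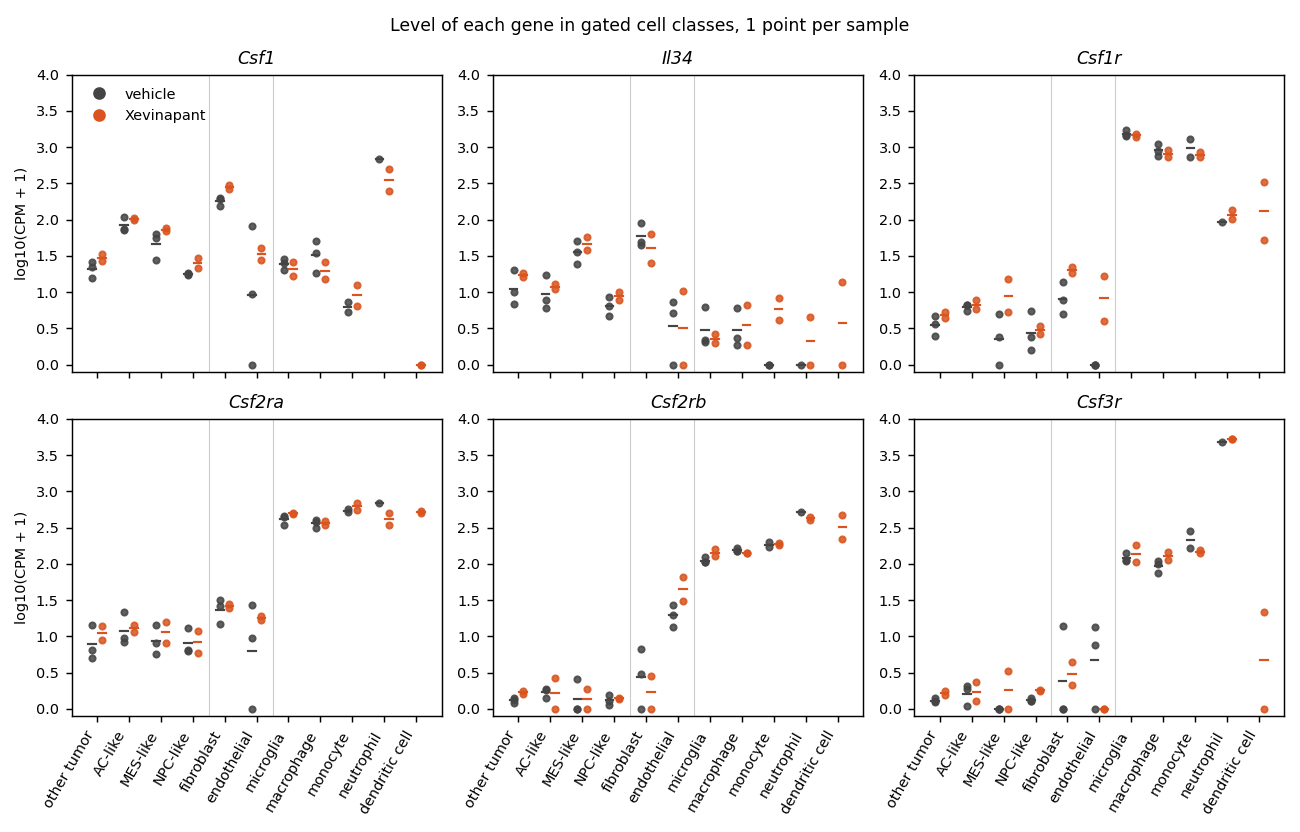
Level of 6 of the genes in the gated classes, as log10(CPM + 1), 1 point per sample with at least 10 cells of the class (black vehicle, orange Xevinapant), with a dash at the mean. Csf1r sat at 716 CPM or more in microglia, macrophages and monocytes, Csf3r peaked in neutrophils at 4774 to 5318 CPM, and Csf1 was detected in tumor cells, fibroblasts and neutrophils alike.

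Among the ligands, Csf1, the main growth factor of macrophages, came mostly from tumor cells by number of UMIs but was at a higher level in fibroblasts and neutrophils. Its level in tumor cells was 23.4, 16.2, 28.7, 36.1 and 31.0 CPM. In fibroblasts it was 199, 190, 155, 301 and 260 CPM, above tumor cells in all 5 samples. Fibroblasts exceeded tumor cells by 3.59 ± 0.19 on the log2 scale (SE; edgeR quasi-likelihood test, sample as block, adjusted p = 2.3e-07).

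All 6 testable genes of the set (Csf1, Il34, Csf1r, Csf2ra, Csf2rb and Csf3r) were called higher in fibroblasts than in tumor cells. Of all genes, 26.8% were called higher there and 56.1% in either direction. Csf3r rested on 24 fibroblast UMIs in all, at 0 to 12.7 CPM. It was higher in fibroblasts in 3 of 5 samples and lower in 2. Csf2rb, at 2.23 ± 0.84 (adjusted p = 0.0454), lost its call when any of 4 samples was left out, and it rested on 1, 0, 5, 6 and 0 UMIs in fibroblasts by sample. Fibroblasts also held leukocyte RNA: Csf1r stood at 1.15% of its level in mononuclear phagocytes, Csf2rb at 1.46% and Csf3r at 2.73%, while leukocyte genes of the gate stood at 0.928 to 2.03%. For Csf3r the samples ran from 0 to 9.99%. Neutrophils held Csf3r far above mononuclear phagocytes, so its percentage cannot be set against those of the gate genes. The part of leukocyte RNA in the receptor values of fibroblasts was not tested.

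Tumor cells were not uniform for Csf1. The gates held no class for host astrocytes or oligodendrocyte-lineage cells and no copy-number step, so such cells could pass as tumor cells. Their part in the values of the tumor states was not tested. In AC-like (astrocyte-like) tumor cells it was at 73.7, 70.1, 106, 105 and 97.8 CPM, and in the tumor cells with no state gate at 21.2, 14.5, 24.8, 32.5 and 25.5 CPM, without overlap. The difference was 2.06 ± 0.08 on the log2 scale (edgeR adjusted p = 1.1e-07). AC-like cells had 3 of 6 genes of the set called, against 67% of all genes, the others being Csf1r (0.91 ± 0.21, adjusted p = 0.0037) and Csf2ra (0.65 ± 0.17, adjusted p = 0.0078). The 6 leukocyte genes of the gate, summed, were also higher in AC-like than in ungated tumor cells in all 5 samples (43.9, 95.7, 57.7, 62.0 and 93.6 CPM against 39.5, 27.7, 39.7, 60.1 and 51.7 CPM), and their part in these receptor calls was not tested.

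MES-like (mesenchymal-like) tumor cells had both ligands of Csf1r at a higher level than the ungated tumor cells. Il34, which like Csf1 maintains microglia, was at 50.2, 23.3, 34.2, 37.4 and 55.5 CPM in MES-like cells and at 9.16, 5.76, 19.0, 15.1 and 17.5 CPM in the ungated ones. The difference was 1.60 ± 0.20 for Il34 (edgeR adjusted p = 6.4e-06) and 1.24 ± 0.19 for Csf1 (adjusted p = 4.6e-05), 2 of 6 genes called against 41% of all genes. MES-like cells needed 2 of 3 markers. With 1 more marker required, the Il34 difference turned to -0.53 (adjusted p = 0.962) and no gene of the set was called. Calls over all genes fell as well, from 5436 to 452. The MES-like differences were thus not kept with all 3 markers required. The part that a lower number of cells had in this was not tested.

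In NPC-like (neural progenitor-like) tumor cells Il34 was lower by 1.04 on the log2 scale (log2 difference -1.04 ± 0.15, edgeR adjusted p = 5.4e-04). It was the only call among 6 genes of the set, against 25.8% of all genes. Csf1 in these cells, at -0.27, did not pass (adjusted p = 0.0656).

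Il34 was also a fibroblast transcript. Its level there was 89.7, 44.1, 48.5, 24.0 and 62.6 CPM, against 9.002, 5.79, 18.6, 15.2 and 17.1 CPM in tumor cells. The groups of treatment overlapped within both classes. The difference between fibroblasts and tumor cells was 2.48 ± 0.37 (edgeR adjusted p = 3.6e-04). Microglia and macrophages, which carry the receptor, had at most 5.20 and 5.58 CPM of Il34.

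Neutrophils had Csf1 at a level above that of fibroblasts in 2 of 3 samples. The 3 samples with at least 10 neutrophils had 691 CPM (vehicle 1 and 3), 248 CPM (Xevinapant 1 and 2) and 503 CPM (Xevinapant 3 and 4), resting on 23, 70 and 71 UMIs. Monocytes of those samples had 6.35, 5.40 and 11.5 CPM, resting on 1, 7 and 11 UMIs. Neutrophils exceeded monocytes by 5.62 ± 0.32 on the log2 scale (edgeR adjusted p = 8.6e-12).

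After thinning to 1000 UMIs per cell, 28.2% of neutrophils held a Csf1 UMI (mean over samples, 246 cells). Without thinning the mean over samples was 31.2% (279 cells). The unthinned counts were 10 of 26 (vehicle 1 and 3), 32 of 184 (Xevinapant 1 and 2) and 26 of 69 (Xevinapant 3 and 4). Neutrophils had a median of 1218 to 1540 UMIs per cell in the groups, against 13509 to 14747 in tumor cells. Tumor marker RNA in neutrophils stood at 3.52 to 9.25% of the level in tumor cells, and the Csf1 level of tumor cells did not exceed 36.1 CPM in any sample.

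Macrophages held 49.7, 34.0, 17.4, 14.1 and 24.8 CPM of Csf1 and microglia 27.8, 24.3, 19.4, 15.9 and 24.7 CPM, which did not differ in the test (0.35 on the log2 scale). Monocytes were lower than macrophages by 1.54 on the log2 scale (log2 difference -1.54 ± 0.34, edgeR adjusted p = 0.0022). The monocyte values rested on 1 Csf1 UMI each in vehicle 1 and 3 and vehicle 4, and on 7 and 11 in the Xevinapant samples. Endothelial cells varied widely, with 80.9, 0, 8.37, 27.0 and 39.0 CPM, and in dendritic cells no Csf1 UMI was counted.

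Csf2 and Csf3 were near the detection limit. The 13 Csf2 UMIs lay in 13 different cells, 8 of them tumor cells, 2 ungated, 1 mixed, 1 NK cell and 1 dendritic cell. By sample they numbered 1, 0, 2, 5 and 5. Single UMIs scattered over the largest class cannot be told from free RNA, and no source of Csf2 could be named at this depth.

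Of the 150 Csf3 UMIs, 76 lay in 72 tumor cells (15, 12, 16, 8 and 25 by sample) and 26 in 25 ungated cells. Fibroblasts held 41 in 7 cells, and 28 of these were in 1 cell. By sample, fibroblasts held 1, 0, 3, 37 and 0 UMIs, so nearly the whole fibroblast value came from 4 cells of Xevinapant 1 and 2. No Csf3 UMI was counted in microglia, macrophages, monocytes or neutrophils.

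Csf1r, the receptor of Csf1 and Il34, was held by all mononuclear phagocytes. In microglia it was at 1429, 1470, 1709, 1519 and 1395 CPM, in macrophages at 876, 761, 1108, 727 and 898 CPM, and in monocytes at 737, 1287, 716 and 863 CPM (vehicle 2 had 9 monocytes and gave no value). Microglia and macrophages did not overlap. Macrophages were lower than microglia by 0.66 on the log2 scale (log2 difference -0.66 ± 0.10, edgeR adjusted p = 3.5e-04), while monocytes and macrophages differed by -0.11, which did not pass.

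Csf1r was lower in neutrophils (90.1, 134 and 99.3 CPM) than in monocytes by 2.72 (log2 difference -2.72 ± 0.32, edgeR adjusted p = 4.4e-07). Dendritic cells, which had at least 10 cells in the Xevinapant samples alone, held 51.6 and 330 CPM and were lower than macrophages by 2.49 (log2 difference -2.49 ± 0.40, adjusted p = 1.1e-08). That fit took its spread from all genes together, so this SE and p-value do not measure the gap between the 2 samples. In tumor cells Csf1r was at 1.56 to 4.41 CPM. At 3000 UMIs per cell, Csf1r was found in 96.5% of vehicle and 96.4% of Xevinapant microglia (means of samples). It was found in 0.761% and 0.998% of tumor cells, where the part of leukocyte RNA was not tested.

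Csf2ra, the ligand-binding chain for GM-CSF, was present in all 5 classes of myeloid cells. It was at 444, 345, 457, 503 and 493 CPM in microglia, at 379, 313, 406, 338 and 390 CPM in macrophages and at 572, 515, 559 and 694 CPM in monocytes. Neutrophils held 691, 496 and 347 CPM and dendritic cells 503 and 526 CPM. Monocytes exceeded macrophages by 0.55 ± 0.12 on the log2 scale (edgeR adjusted p = 0.0024), a call that was lost without Xevinapant 3 and 4 (0.47, adjusted p = 0.0607) and in vehicle samples alone (0.34, adjusted p = 0.422). Neutrophils and monocytes differed by -0.29 with a 95% interval of -0.90 to 0.32 (adjusted p = 0.467), and dendritic cells and macrophages by 0.21 with an interval of -0.43 to 0.85.

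Csf2ra differed from the other receptors in the tumor cells. Its level there was 5.67, 4.20, 13.5, 12.6 and 8.12 CPM, which is 2.07 ± 0.907% (SD, n = 5) of the level in mononuclear phagocytes. The other receptor chains stood at 0.291% (Csf1r), 0.342% (Csf2rb), 0.265% (Csf2rb2) and 0.368% (Csf3r), and 6 leukocyte genes of the gate at 0.371 to 0.978%. Csf2ra was highest of these 11 genes in 5 of 5 samples. The 6 gate genes were used to keep leukocytes out of the tumor class, so their low shares are partly set by the gate.

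Csf2ra was detected in 2.47% (vehicle) and 3.56% (Xevinapant) of tumor cells at 3000 UMIs, against 71.0% and 74.5% of microglia. Csf2ra and Csf2rb together, as a GM-CSF receptor needs, were found in 0.0036% and 0.0245% of tumor cells, in 19.8% and 28.4% of microglia and in 32.3% and 31.7% of monocytes. In fibroblasts Csf2ra stood at 5.89% of the mononuclear phagocyte level, above the gate genes.

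**Figure D2:**
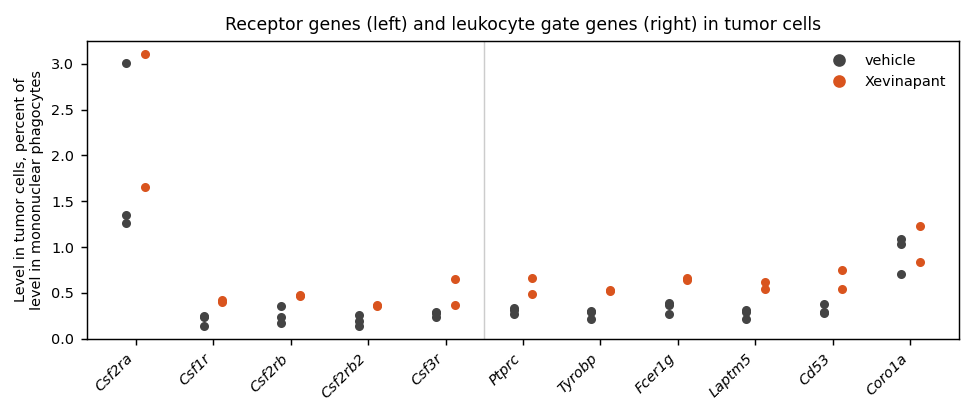
Level in tumor cells as a percentage of the level in mononuclear phagocytes of the same sample, for Csf2ra, the other receptor chains and 6 leukocyte genes used in the gate, 1 point per sample (black vehicle, orange Xevinapant). Csf2ra lay at 1.26 to 3.10%, while the other 10 genes lay between 0.135 and 1.23%.

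Csf2rb, the signalling chain, was highest in neutrophils (510, 404 and 447 CPM) and dendritic cells (464 and 217 CPM). It was at 122, 104, 103, 159 and 127 CPM in microglia, at 163, 150, 150, 140 and 140 CPM in macrophages and at 197, 169, 190 and 183 CPM in monocytes. Neutrophils exceeded monocytes by 1.27 ± 0.25 (edgeR adjusted p = 2.8e-04), and dendritic cells exceeded macrophages by 0.93 ± 0.33 (adjusted p = 0.0367). Macrophages exceeded microglia by 0.38 ± 0.12 (adjusted p = 0.0269), a call that was lost when any sample other than Xevinapant 1 and 2 was left out and with library size alone in place of TMM scaling (0.25, adjusted p = 0.117).

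Endothelial cells also held Csf2rb, at 18.7, 26.3, 12.6, 29.9 and 63.9 CPM from 61 UMIs in all. They exceeded tumor cells by 6.18 ± 0.53 on the log2 scale (edgeR adjusted p = 8.2e-09), the only call among 6 genes of the set against 45.2% of all genes. Csf2rb2 behaved alike, at 6.2 to 32.7 CPM and 6.57 ± 0.55 above tumor cells (adjusted p = 6.7e-09). The endothelial level was 21.6 ± 13.7% (Csf2rb) and 21.7% (Csf2rb2) of that in mononuclear phagocytes.

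Csf2rb2 differed from Csf2rb in its order among phagocytes. It was at 54.6 to 84.3 CPM in microglia, 93.1 to 123 CPM in macrophages and 50.4 to 89.5 CPM in monocytes. Macrophages exceeded microglia by 0.84 ± 0.14 (edgeR adjusted p = 5.6e-04), and monocytes were lower than macrophages by 0.73 (log2 difference -0.73 ± 0.18, adjusted p = 0.0067). The probes of the pair may share reads, so the values of each are uncertain.

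By level, Csf3r was above all a neutrophil transcript. Its level was 4774, 5288 and 5318 CPM in the neutrophils of the 3 samples with enough cells, the lowest being the single vehicle sample. Monocytes held 165, 279, 141 and 152 CPM, macrophages 99.4, 74.8, 110, 111 and 144 CPM and microglia 109, 141, 113, 105 and 180 CPM. Neutrophils exceeded monocytes by 5.13 ± 0.47 (edgeR adjusted p = 1.2e-08). Macrophages and microglia did not differ (-0.09), and monocytes stood 0.44 ± 0.16 above macrophages (adjusted p = 0.0531).

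The level in microglia, macrophages and monocytes was 2.55, 2.29 and 3.0% of that in neutrophils. In the same cells the neutrophil genes S100a8, S100a9 and Retnlg had class means over 3 samples of up to 0.0999, 0.00573 and 0.0794% of their neutrophil level. Those of Cxcr2 (a chemokine receptor) were up to 0.196% and those of Mmp9 (a protease of neutrophil granules) up to 0.708%. Single samples reached 0.516% for Cxcr2 and 1.41% for Mmp9. The class means of Il1r2, the decoy receptor of interleukin 1, were 0.216 to 2.81%. These genes were part of the neutrophil gate. Dendritic cells held 0 and 2 UMIs of Csf3r (0 and 20.6 CPM) in the Xevinapant samples and were lower than macrophages (edgeR adjusted p = 2.9e-06), with too few UMIs for a fold.

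Counted by comparison, the genes of the set called were 2 of 5 between macrophages and microglia (26.9% of all genes), 2 of 5 between monocytes and macrophages (22.3%), 4 of 5 between neutrophils and monocytes (37.1%) and 3 of 5 between dendritic cells and macrophages (14.5%). The percentages count genes in either direction. The neutrophil comparison used 3 samples and the dendritic cell comparison 2, both from Xevinapant. The dendritic cell fit took its spread from all genes together, so its p-values do not measure the spread between those 2 samples.

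The question of treatment was whether Xevinapant tumors differed in these ligands and receptors as a whole and within each cell class. Summed over all kept cells, Csf3r was at 4.27, 2.20 and 3.05 CPM in vehicle and at 22.7 and 7.58 CPM in Xevinapant. Csf2rb was at 3.77, 2.05 and 2.69 CPM against 13.01 and 4.55 CPM. Both were higher in Xevinapant without overlap, and Xevinapant 1 and 2 was well above the other treated sample. Each had an exact permutation p of 0.1, the smallest possible. The share of all genes that separated in this way was not counted, here or for the genes below.

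Csf1r stood at 24.5, 16.7 and 27.5 CPM in vehicle and at 61.3 and 29.2 CPM in Xevinapant, and Csf1 at 24.98, 17.6 and 29.1 CPM against 42.9 and 31.4 CPM. The groups did not overlap, though the lower treated sample was within 3 CPM of the highest vehicle sample for both. Il34 (11.03, 6.85 and 19.3 against 16.7 and 19.9 CPM) and Csf2ra (14.7, 9.22 and 20.6 against 41.0 and 19.7 CPM) overlapped. Csf3 was at 0.146, 0.152 and 0.106 CPM against 0.412 and 0.169 CPM, from 19, 16, 22, 49 and 44 UMIs.

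In the edgeR test 0 of 7 genes of the set were called, as were 0% of the 15103 genes tested, and Csf2 was too low to test. The log2 differences were 2.20 ± 0.50 for Csf3r (adjusted p = 0.243), 1.57 ± 0.49 for Csf2rb (0.243), 0.92 ± 0.34 for Csf1r (0.263), 0.97 ± 0.41 for Csf2ra (0.301), 0.58 ± 0.24 for Csf1 (0.301), 1.03 ± 0.52 for Csf3 (0.353) and 0.50 ± 0.41 for Il34 (0.553). Unadjusted p was under 0.05 for 3 of them, Csf3r, Csf2rb and Csf1r. Many other genes lay as low, since Csf1, at an unadjusted edgeR p of 0.051, had an adjusted p of 0.301. All 7 genes of the set were positive, with a median of 0.97 beside 0.0053 over all genes.

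DESeq2 called 2 of them, Csf3r (2.19, adjusted p = 0.00199) and Csf2rb (1.56, adjusted p = 0.0436), among 749 genes, 5.27% of those tested. With each matrix as 1 mouse, edgeR called Csf3r (2.09, adjusted p = 0.033) among 10.4% of all genes. Leaving out Xevinapant 3 and 4 brought both calls (Csf3r 2.77, adjusted p = 0.0265, and Csf2rb 2.12, adjusted p = 0.0425, with 3.56% of all genes called), and leaving out Xevinapant 1 and 2 lowered the differences to 1.17 and 0.59. Either of these fits has a single Xevinapant sample, whose spread is assumed to be that of the vehicle samples.

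**Figure D3:**
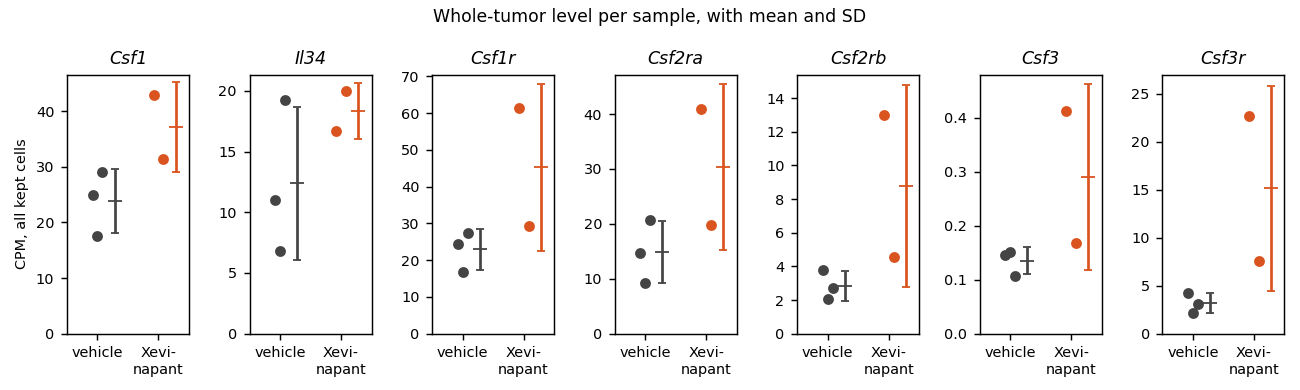
Level of 7 of the genes summed over all kept cells, in CPM, 1 point per sample (black vehicle, n = 3, orange Xevinapant, n = 2), with the mean and SD. Xevinapant 1 and 2 was the highest sample for each gene but Il34, and for Csf2ra and Il34 the groups overlapped.

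A whole-tumor sum does not separate more cells of a class from more RNA per cell, and the shares of several classes differed too. Neutrophils were 0.162 ± 0.128% of kept cells in vehicle and 1.34 ± 1.21% in Xevinapant (SD, n = 3 and 2), monocytes 0.331 ± 0.169% and 1.60 ± 0.935%, and fibroblasts 0.558 ± 0.263% and 2.08 ± 1.71%, each without overlap and at the smallest exact p of 0.1. Tumor cells were 80.9 ± 4.18% and 63.9 ± 3.69% (exact p = 0.1), macrophages 1.42 ± 0.633% and 3.86 ± 2.88% (exact p = 0.2) and microglia 1.42 ± 0.211% and 1.43 ± 0.207% (exact p = 1). Cells that passed no gate were 11.7 ± 3.67% and 20.3 ± 4.35% (exact p = 0.1). The sizes rest on Xevinapant 1 and 2: without it the difference in percentage points was 0.325 for neutrophils, 0.606 for monocytes and 0.310 for fibroblasts, and without Xevinapant 3 and 4 it was 2.04, 1.93 and 2.73.

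The cells that held each transcript also differed between the groups. Neutrophils gave 28.8, 22.0 and 11.5% of Csf3r UMIs in vehicle and 54.9 and 37.9% in Xevinapant, without overlap (exact p = 0.1). Counted per 1000 kept cells, neutrophils gave 10.8 ± 7.0 Csf3r UMIs in vehicle and 116 ± 88.9 in Xevinapant. Mononuclear phagocytes gave 51.6% of Csf3r UMIs on average in vehicle and 35.8% in Xevinapant (exact p = 0.2). Per 1000 kept cells they gave 25.3 ± 4.92 and 76.9 ± 28.3 (exact p = 0.1). The Csf3r level within neutrophils, given above, was lower in the single vehicle sample than in both Xevinapant samples, and could not be tested.

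Microglia gave 43.4, 48.1 and 51.0% of Csf1r UMIs in vehicle and 24.99 and 38.6% in Xevinapant, and monocytes 3.64, 2.05 and 5.35% against 12.6 and 10.8%. Both sets of values were without overlap (exact p = 0.1 each). Macrophages gave 31.0, 25.5 and 14.5% against 45.3 and 23.2%, which overlapped (exact p = 0.5). Per 1000 kept cells, the Csf1r UMIs of microglia were 175 ± 52.9 in vehicle and 212 ± 7.52 in Xevinapant (exact p = 0.5). Mononuclear phagocytes together held 274 ± 63.7 Csf1r UMIs per 1000 kept cells in vehicle and 556 ± 236 in Xevinapant (exact p = 0.1).

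Tumor cells gave 80.1, 80.8 and 90.9% of Csf1 UMIs in vehicle and 65.2 and 75.9% in Xevinapant. Fibroblasts gave 3.16, 3.03 and 2.22% against 19.2 and 5.67%. Both were without overlap (exact p = 0.1 each). Per 1000 kept cells, the Csf1 UMIs of tumor cells overlapped between the groups, at 325 and 418 on average (exact p = 0.3). Those of fibroblasts were 10.4 ± 1.76 and 74.8 ± 59.5. Ungated cells and erythrocytes together gave 7.24% of Csf1 UMIs in vehicle and 11.3% in Xevinapant (exact p = 0.4). Per 1000 kept cells these were 25.8 and 66.6 (exact p = 0.1). Their share of Il34 was 11.7 and 23.7% (exact p = 0.1). Tumor markers in ungated cells stood at 23.0 to 27.9% of the level in tumor cells. For Csf2ra, tumor cells gave 32.9, 40.0 and 60.1% in vehicle and 24.2 and 31.8% in Xevinapant (exact p = 0.2), and for Csf2rb the mononuclear phagocyte share was 65.6 and 65.1% on average (exact p = 0.9).

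**Figure D4:**
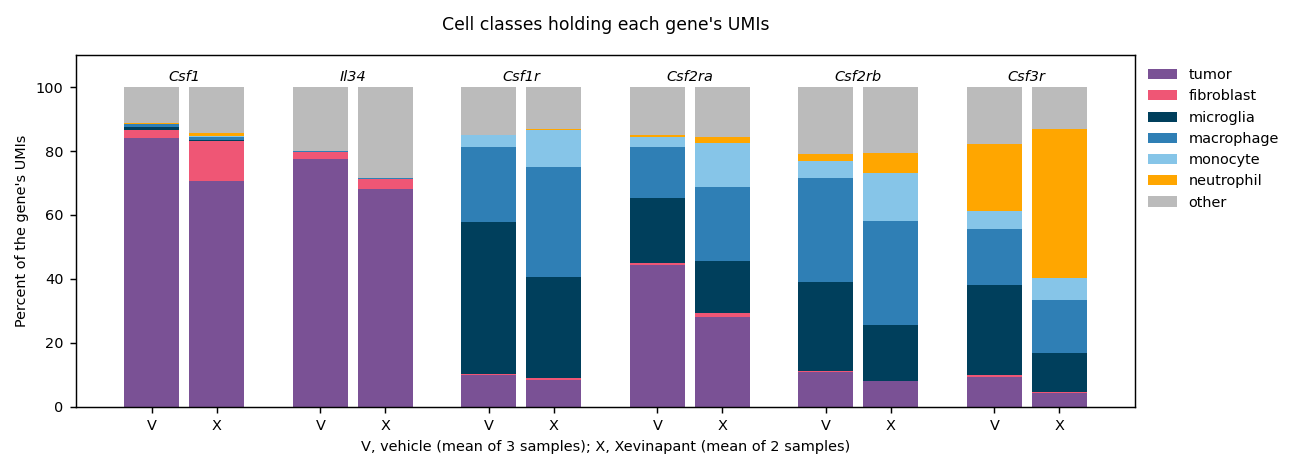
Share of each gene's UMIs by the gated class that held them, in percent, as the mean of 3 vehicle samples (V) and 2 Xevinapant samples (X). The neutrophil share of Csf3r was 20.8% in vehicle and 46.4% in Xevinapant, the microglia share of Csf1r 47.5 and 31.8%, and the tumor share of Csf1 83.9 and 70.6%.

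Within classes, 44 pairs of a gene and a class could be tested between Xevinapant and vehicle, in 10 classes, of which the tumor states are parts of the tumor class. None was called by edgeR, the smallest adjusted p was 0.382, and 10 pairs had an unadjusted p under 0.05. Csf2rb and Csf3r are among these 10 in tumor cells and again in the ungated tumor cells, which are most of that class. The share of all genes with such a p was not counted. DESeq2 gave an adjusted p for 37 pairs and called 0. Of all genes tested, the calls were 0% in tumor cells, ungated tumor cells, T cells, fibroblasts, AC-like and NPC-like cells, 0.0101% in microglia, 0.155% in macrophages, 0.0361% in monocytes and 0.0379% in MES-like cells. Neutrophils, with 1 vehicle sample, and dendritic cells could not be tested, and in endothelial cells no gene of the set passed the filter on low counts.

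The receptors of mononuclear phagocytes gave small differences. For Csf1r they were -0.05 in microglia, -0.15 in macrophages and -0.32 in monocytes on the log2 scale. In fibroblasts Csf1r was at 1.17 ± 0.48 (edgeR adjusted p = 0.822), with 3.99 to 12.7 CPM in vehicle and 17.2 to 21.2 CPM in Xevinapant. The part of leukocyte RNA in that value was not tested. Csf2ra ranged from -0.09 to 0.40 over 9 classes. Csf2rb was at 0.40 ± 0.17 in microglia (edgeR adjusted p = 0.812) and -0.12 ± 0.16 in macrophages, and Csf3r at 0.42 ± 0.19 in macrophages (0.406) and -0.58 ± 0.26 in monocytes (0.534).

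Of the ligands, Csf1 was at 0.52 ± 0.24 in tumor cells (edgeR adjusted p = 0.433), 0.61 ± 0.28 in fibroblasts (0.822), 0.67 ± 0.30 in MES-like cells (0.543) and -0.90 ± 0.38 in macrophages (0.382). The Csf1 values of tumor cells and fibroblasts listed above lay higher in both Xevinapant samples than in the 3 vehicle samples, and those of macrophages overlapped. How many of all genes separated so within these classes was not counted. Il34 ranged from -0.55 to 0.49 over 6 classes.

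When the treatment differences of 2 classes were set against each other, edgeR called Csf1 and Csf2rb between macrophages and tumor cells, where 1.55% of all genes were called, and Csf3r between monocytes and tumor cells, where 0.491% were. Each of these calls was lost on leaving out some of the samples, and their values stand among the results for a closer look.

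Csf3r (1.05 ± 0.35, edgeR adjusted p = 0.393) and Csf2rb (1.005 ± 0.39, 0.403) in tumor cells had unadjusted p under 0.05, at levels of 0.26 to 0.75 and 0.22 to 0.73 CPM. Leukocyte gate genes in the same tumor cells were at 40.2, 30.0 and 41.0 CPM in vehicle and 61.2 and 54.4 CPM in Xevinapant, and neutrophil genes at 2.90, 2.97 and 2.19 CPM against 8.47 and 6.80 CPM. Their part in the receptor values of tumor cells was not tested.

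Shares of cells with a UMI at equal depth (3000 UMIs per cell) are given as values alone. An exact permutation test on so few samples cannot fall under 0.05. Csf2rb was found in 27.4% of vehicle and 36.9% of Xevinapant microglia, and in 36.5 and 28.5% of macrophages. Csf3r was found in 38.9 and 27.2% of monocytes (2 samples a group), a difference that ran from -31.6 percentage points without vehicle 1 and 3 to 8.17 without vehicle 4 and so turned its direction. It was found in 23.2 and 31.4% of macrophages. In tumor cells Csf2rb was at 0.116% in both groups and Csf3r at 0.0563 and 0.184%, values in which the part of leukocyte RNA was not tested. Csf1 was found in 6.45 and 9.07% of tumor cells and in 38.5 and 45.6% of fibroblasts.

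Other genes of these pathways were counted from 4 lists. From a list of 12 genes of GM-CSF and G-CSF signalling, 7 of 9 tested were higher in monocytes than in macrophages, as were 11.3% of all genes, among them Socs3 (1.62 on the log2 scale), a feedback inhibitor, the kinase Jak2 (1.21) and the transcription factor Stat5a (1.07). Neutrophils had 5 of 10 higher than monocytes, where 17.8% of all genes were higher and 19.2% lower, with Cebpe, a factor of granulocyte maturation, at 2.90. From 12 genes of the Csf1r pathway, all tested, 5 were lower in neutrophils than in monocytes and none was higher, including Irf8 (-4.01), a transcription factor of monocytes and dendritic cells.

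From 12 genes known to induce colony-stimulating factors or to receive those signals, 8 of 10 were higher in fibroblasts than in tumor cells, as were 26.8% of all genes, including the receptors Il1r1 (6.35) and Il17ra (5.10). In AC-like cells 4 of 11 were higher than in ungated tumor cells, including Il1r1 (3.69), and 1 lower, a share near that of all genes higher there (32.9%). Il1b, which codes for the cytokine interleukin 1 beta, was higher in monocytes than in macrophages (2.42) and in neutrophils than in monocytes (3.47). Of 13 related cytokines and receptors, 4 of 6 were higher in endothelial than in tumor cells, as were 21.7% of all genes, with Kitl (stem cell factor) at 5.95 and Il3ra, which pairs with Csf2rb, at 4.57. Dendritic cells exceeded macrophages in Kit, the receptor of Kitl, by 4.42. Flt3, the receptor that sustains dendritic cells, was counted in dendritic cells and not in macrophages. Flt3 was a marker of the dendritic cell gate, so the gate partly sets this contrast.

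Between treatment groups, none of these 4 lists had a call in the whole tumor by edgeR, with list medians of 0.99 (Csf1r pathway), 0.76 (GM-CSF and G-CSF signalling), 1.16 (related cytokines) and 0.43 (inducers) beside 0.0053 for all genes. Within classes, the single call was Il1a, interleukin 1 alpha, lower in Xevinapant macrophages by 1.18 (log2 difference -1.18 ± 0.19, edgeR adjusted p = 0.0493). With library size alone in place of TMM scaling, or without vehicle 4, no gene was called lower in Xevinapant macrophages, so that call was lost.

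The genes whose mean levels over 15 classes were most like each member were named by Pearson correlation, as a description over classes that share libraries. For Csf1r they were P2ry6 (0.985), Fcgr1 (0.980) and Tbxas1 (0.972), and for Csf2ra Mpeg1 (0.977), Cysltr1 (0.975) and Lgals3 (0.965). Csf2rb was nearest to Lcp2 (0.976), Naip2 (0.970) and Rhog (0.969), and those given for Csf3r are Msrb1 (0.972) and Osm (0.971). The ligand Il34 was nearest to Vasn (0.958), Tbx15 (0.954) and Parm1 (0.949). Csf1 had the weakest neighbours, Nqo1 (0.876), P4ha1 (0.850) and Egln3 (0.837).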

How the data were processed

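Cells of orthotopic mGSC tumors were profiled with a probe-based 10x assay. The authors deposited UMI counts per gene and barcode for 8 matrices (19059 genes, mm10). The file headers give Cell Ranger 7.1.0, while the labels give Cell Ranger 3.0 and Seurat 4.0. Some Xevinapant file names carry the word vehicle, and the label was followed.

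A barcode passed with 200 genes or more, a mitochondrial share of 10% or less and a complexity from 0.8 upwards (54574 of 56943 did). Scanpy 1.11.5's Scrublet removed 3512 doublets, at 0.8% per 1000 barcodes, and 1002 smaller copies of barcodes present in both groups were removed. Cells were gated by markers, each on at 1 UMI and 3 times its mean. Tumor cells needed 0.5 of the mean glial marker level and no other gate, and the whole counts were summed per sample and class. The sums were tested with edgeR 4.0.16's quasi-likelihood test (TMM, filterByExpr, Benjamini-Hochberg over all genes, threshold 0.05), with the sample as block between classes. DESeq2 1.42.0 was an alternative. Shares were compared with two-sided exact permutation tests. Adjusted p-values in the text come from edgeR unless DESeq2 is named. Intervals are 95% and cover the fit alone.

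Named genes were the members, Csf2rb2, from 4 pathway lists those past the threshold (at most 8 per list and comparison, by smallest adjusted p, of which a few are given), and for each member the 3 genes of highest Pearson correlation of mean log2(CPM + 1) over classes, among genes that reached 10 CPM in a class. The members and the gene lists were chosen with earlier results of these data known. The tests were checked on simulated counts. Some genes that the rule would name are not reported here.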

Additional observations from a re-analysis of the deposited data

Results flagged for a closer look

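Csf3 in the whole tumor was at 0.684 CPM in Xevinapant matrix 1 (38 UMIs) and at 0.173, 0.197 and 0.137 CPM in the other 3 Xevinapant matrices, a gap to the others above Dixon's limit for 4 values. Chance gives such a gap in about 1 of 20 groups, and 16 groups of 4 matrices were checked. Most of these UMIs lay in a few fibroblasts, as the report gives.

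In separate fits, the treatment difference of Csf1 was -0.90 in macrophages and 0.52 in tumor cells on the log2 scale. A joint fit of both classes gave a difference of log2 fold changes of -1.42 ± 0.39 (edgeR interaction, adjusted p = 0.0419, with 1.55% of 14372 genes called). The call was kept without vehicle 4 (-1.83, adjusted p = 0.00628) and lost without vehicle 1 and 3 (-0.99, 0.342), vehicle 2 (-1.25, 0.271), Xevinapant 1 and 2 (-0.86, 1) or Xevinapant 3 and 4 (-1.91, 0.0697). The treatment difference of Csf2rb was -0.12 in macrophages and 1.005 in tumor cells. The joint fit gave -1.13 ± 0.27 (edgeR interaction, adjusted p = 0.0167). That call was lost without vehicle 2 (adjusted p = 0.145), without Xevinapant 1 and 2 (difference -1.06) or without Xevinapant 3 and 4 (difference -1.19). That of Csf3r was -0.58 in monocytes and 1.05 in tumor cells. The joint fit gave -1.46 ± 0.37 (edgeR interaction, adjusted p = 0.0197, with 0.491% of 14041 genes called). That fit took its spread from all genes together, so this SE and p-value do not measure the spread between the samples. The Csf3r call was lost without vehicle 4 (difference -1.20), Xevinapant 1 and 2 (-1.27) or Xevinapant 3 and 4 (-1.71). The Csf2rb and Csf3r levels of tumor cells in these differences were under 1 CPM.

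In opposite directions without overlap between the groups, Csf2rb was lower in macrophages and higher in microglia of Xevinapant tumors (difference -0.52 ± 0.19, edgeR adjusted p = 0.470), and Csf3r was lower in monocytes and higher in macrophages (difference -0.79 ± 0.27, adjusted p = 0.624). Neither difference passed the test, and the share of all genes with such opposite directions was not counted. For Csf3r in macrophages the highest vehicle sample was at 109.8 CPM and the lowest Xevinapant sample at 110.5 CPM. Monocytes had 2 samples a group.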

How the results depend on the processing

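In the whole tumor, DESeq2 called 2 genes of the set (Csf3r 2.19, Csf2rb 1.56) and each matrix as 1 mouse called 1 (Csf3r 2.09). Leaving out samples in turn gave 0 to 2, with Csf3r from 1.17 to 2.77 and Csf2rb from 0.59 to 2.12. Over all genes, the edgeR count of 0 became 749 with DESeq2, 1516 with each matrix and 547 without Xevinapant 3 and 4. In tumor cells 0 became 279 (DESeq2) and 757 (each matrix), in fibroblasts 31 (DESeq2) and 7 (each matrix). In macrophages 15 became 244 (no filter), 149 (each matrix), 43 (DESeq2) and 4 (library size alone), and 1 to 94 on leaving out a sample (94 without Xevinapant 3 and 4). In monocytes 3 became 105 (no filter), 11 (DESeq2), 1 (each matrix) and 0 (stricter gate), and 0 to 134 on leaving out a sample (134 without Xevinapant 3 and 4). The only gene of the set called within a class under any alternative was Csf1r in T cells without Xevinapant 3 and 4 (-3.20, adjusted p = 0.0239), which leaves 18 Xevinapant T cells with 2 Csf1r UMIs.

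Between classes, monocytes against macrophages gave 4 calls with library size alone, 1 with the stricter gate and 1 in vehicle alone. Endothelial against tumor cells gave 2 with each of these, and MES-like cells gave 0 with the stricter gate (Il34 -0.53), where the count over all genes went from 5436 to 452. Leaving out a sample, chosen after seeing the data, gave 1 to 2 calls for macrophages against microglia, NPC-like and endothelial cells. Library size alone moved the median of all genes from -0.12 to -0.67 in fibroblasts against tumor cells (3654 higher and 3979 lower became 2431 and 7287), from -0.17 to -0.43 in endothelial cells (2881 and 3138 became 2366 and 4685), from -0.01 to -0.14 in macrophages against microglia (1403 and 1160 became 1011 and 1974) and from -0.11 to 0.18 in dendritic cells against macrophages (562 and 830 became 807 and 610). The cause was not tested.

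With each matrix as 1 mouse the exact p fell to 0.0286 for the source shares (Xevinapant minus vehicle, percentage points) of Csf1 from tumor cells (-12.4) and fibroblasts (9.52), Csf1r from monocytes (8.03), Csf2ra from tumor cells (-13.4) and Csf3r from neutrophils (23.7), and for the class shares of tumor cells (-15.9), fibroblasts (1.51), endothelial cells (0.25), monocytes (1.25) and neutrophils (1.14), with microglia at -0.00745. This count treats alike matrices as separate mice. Under the stricter gate the Csf2rb share of mononuclear phagocytes moved to 2.10. Leaving out samples gave -0.139 to 0.154 for microglia (0.095 without vehicle 4), -0.402 to 21.7 for Csf1r from macrophages and -5.06 to 3.97 for Csf2rb from mononuclear phagocytes (0.342, 2.05 and -4.03 without each vehicle sample). No paired analysis was possible because the labels carry no replicate numbers that tie vehicle to Xevinapant mice. The 13 UMIs of Csf2 and 150 of Csf3 limit what can be said of these genes.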
